A study of Homo sapiens with 8 samples.

Results

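A group of 10 genes that write, copy and erase DNA methylation was followed from mRNA to ribosome occupancy: DNMT3A, DNMT3B, DNMT1, UHRF1, UHRF2, TET1, TET2, TET3, TDG and MBD4. They were chosen by name as the transduced gene DNMT3A with its partners and opponents, and all 10 were found by Ensembl ID among the 20453 genes counted in every library. THP-1, the name on the labels, is a line derived from a human monocytic leukaemia. The cells had been transduced with DNMT3A R882H (mutant) or with wild-type DNMT3A, so both groups carried an introduced DNMT3A. R882H is a recurrent change of acute myeloid leukaemia in the catalytic domain of the enzyme. The labels give no vector or promoter, no clone number and no age of the cultures, and do not say whether the cell's own gene was kept. Each genotype had 2 RNA-seq libraries (mRNA) and 2 ribosome profiling libraries, which count fragments of mRNA that ribosomes shield from nuclease (footprints).

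DNMT3A and DNMT3B place new methyl groups on CpG cytosines. DNMT1 copies existing methylation to the new strand after replication, and UHRF1 brings it to DNA methylated on the old strand alone. TET enzymes oxidise 5-methylcytosine, and TDG removes the more oxidised forms by base excision, which returns the site to plain cytosine. In blood, DNMT3A and TET2 are both frequent targets of mutation in clonal haematopoiesis and leukaemia.

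Some of these genes differed between mutant and wild-type cells at each level. In mRNA, where 37.7% of all genes were called, DNMT3A, DNMT3B, DNMT1, UHRF1 and TET3 fell and MBD4 rose in the mutant (fold changes between 0.663 for UHRF1 and 1.25 for MBD4). The other 4 were not called. In footprints, where 21.2% of all genes were called, TET2 rose 1.85-fold, DNMT1 and TDG fell and 7 were not called. Footprints per mRNA, where 4.11% of all genes were called, rose for TET2 and TET3, fell for TDG and were not called for 7.

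The levels below are CPM, counts scaled to a common library size with TMM factors within each assay, and fold changes are mutant over wild type. Total counts were 3415999 to 4523475 in the mRNA libraries and 603360 to 1988513 in the footprint libraries, and both mutant footprint libraries were shallower than both wild-type ones. The markers went against the labelled cell type, since most monocyte markers stayed under 10 CPM while most erythroid markers reached it. Of 15 monocyte markers 4 (CD33, SPI1, LYZ and CD68) reached 10 CPM in every library, and 6 (S100A8, S100A9, FCN1, IRF8, CD163 and MPO) had no count in any, whereas between 12 and 14 of 14 erythroid markers reached 10 CPM. The summed level of the erythroid markers was 2814 and 2848 CPM in mutant mRNA, against 3246 and 3300 CPM in wild-type mRNA. That of the monocyte markers was 156 and 165 CPM in mutant mRNA, against 156 and 161 CPM in wild-type mRNA. Of the other marker lists, 4 of 5 epithelial, 1 of 5 T and NK cell and 0 of 5 B cell markers reached 10 CPM in each library. The epithelial markers, of which CDH1 had no count, summed to 917 and 913 CPM in mutant mRNA, against 1166 and 1203 CPM in wild-type mRNA, and to 692 and 678 CPM in mutant footprints, against 987 and 1053 CPM in wild-type footprints. By edgeR 7 of 14 erythroid and 3 of 4 tested epithelial markers fell in mRNA, where 18.9% of all genes did. In footprints 4 of 12 tested erythroid markers rose and 4 fell, and all 4 tested epithelial markers fell, where 10.3% of all genes rose and 11% fell. The part of these levels in the results below was not tested. In bulk libraries fewer cells of a type and less RNA per cell cannot be told apart.

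Promoter windows of 2 genes that fell in mRNA and of the gene that rose are shown because they differ in a motif of replication-linked genes. All 10 genes matched the RefSeq promoter table (GRCh38.p14; 250 bases before to 50 bases after a start site). The motif searched is the core E2F site, as TTTCCCGC, TTTCGCGC, TTTGCCGC or TTTGGCGC, on both strands; E2F factors switch on genes at the entry to S phase. It occurs in 3.31% of the 35116 promoter windows in the table. That share is of windows, and no share of genes, which differ in their number of windows, was computed. Among the 10 genes it occurs in the single window of DNMT1 and in 2 of the 3 windows of UHRF1. These letters are not in the windows of the other 8 genes, among them DNMT3A, DNMT3B and TET3, which also fell in mRNA. The windows need not cover every start site. The only window of DNMT3B, chromosome 20, 32779602 to 32779901, lies inside the gene, which starts at 32762385. The box CCAAT, on both strands, occurs in 34.6% of all windows and in 2 places in that of MBD4. It also occurs in windows of UHRF1, DNMT3B and TET3, which fell in mRNA, and of TET1 and TDG, which were not called. Capitals mark the E2F letters and the CCAAT letters (ATTGG on the other strand), all written 5′ to 3′ along the gene's strand: DNMT1 at chr19:10194904-10195203 (minus), UHRF1 at the second of its 3 start sites, chr19:4909894-4910193 (plus), and MBD4 at chr3:129439899-129440198 (minus).
DNMT1: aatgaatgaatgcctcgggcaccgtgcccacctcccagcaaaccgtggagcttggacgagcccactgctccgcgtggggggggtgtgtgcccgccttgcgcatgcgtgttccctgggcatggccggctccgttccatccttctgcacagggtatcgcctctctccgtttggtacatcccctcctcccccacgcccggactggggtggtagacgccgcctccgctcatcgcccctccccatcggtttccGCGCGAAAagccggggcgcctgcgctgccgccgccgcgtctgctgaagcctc
UHRF1: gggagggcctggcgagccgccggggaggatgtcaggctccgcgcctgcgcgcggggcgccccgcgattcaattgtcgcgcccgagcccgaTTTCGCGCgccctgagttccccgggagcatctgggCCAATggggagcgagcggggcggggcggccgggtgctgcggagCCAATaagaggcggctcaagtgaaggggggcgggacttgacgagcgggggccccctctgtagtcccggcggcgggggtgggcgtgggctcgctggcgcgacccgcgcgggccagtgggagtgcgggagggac
MBD4: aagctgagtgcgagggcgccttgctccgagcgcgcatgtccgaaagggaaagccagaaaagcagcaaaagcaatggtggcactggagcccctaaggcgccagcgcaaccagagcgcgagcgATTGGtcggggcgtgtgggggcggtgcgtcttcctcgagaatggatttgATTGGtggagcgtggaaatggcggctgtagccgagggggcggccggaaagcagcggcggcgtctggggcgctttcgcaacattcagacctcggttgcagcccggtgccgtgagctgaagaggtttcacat

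**Figure D1:**
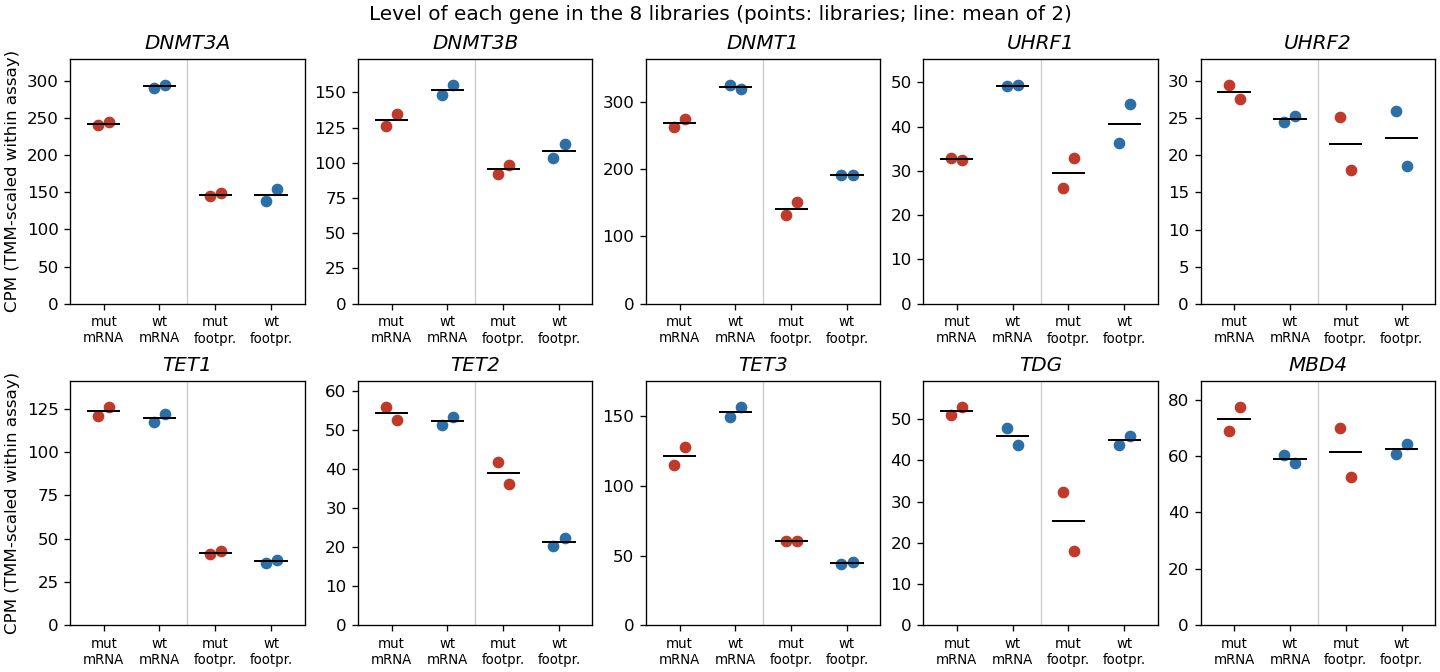
Level of each gene in CPM (scaled within each assay; y axes start at 0) in the 8 libraries, with mutant libraries in red and wild-type libraries in blue and a line at the mean of 2. In mRNA the mutant points of DNMT3A, DNMT3B, DNMT1, UHRF1 and TET3 lie below both wild-type points, and in footprints those of TET1, TET2 and TET3 lie above them.

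The first comparison asked how the mRNA of each gene differed between mutant and wild type. In edgeR's quasi-likelihood test, with p-values adjusted over all genes by the Benjamini-Hochberg method, 5 of the 10 genes fell, 1 rose and 4 were not called. Over all 10756 genes tested 37.7% were called, 18.9% higher and 18.9% lower, so the 6 calls among 10 stand against a background that is itself high. The values of the mutant lay wholly below those of the wild type for 5 genes and wholly above for 3 (UHRF2, TDG and MBD4). Among all genes 67.8% had groups that did not overlap, 34% with the mutant higher and 33.9% with it lower.

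Of the de novo methyltransferases, DNMT3A (ENSG00000119772, GRCh38.p14 chromosome 2, 25227874 to 25342590) stood at 241 and 244 CPM in mutant mRNA, against 291 and 294 CPM in wild-type mRNA. The pairs did not overlap, and the fall had a log2 fold change of -0.27 (SE 0.0533, edgeR adjusted p = 4.3e-06). Reads of the introduced copy and of the cell's own gene are counted together, so the values do not check which allele a library carried. DNMT3B (ENSG00000088305, chromosome 20, 32762385 to 32809356) stood at 126 and 135 CPM in mutant mRNA, against 148 and 155 CPM in wild-type mRNA. It fell with a log2 fold change of -0.22 (SE 0.0677, edgeR adjusted p = 0.004), much like DNMT3A. Within a library the counts of DNMT3B per count of DNMT3A were 0.523 and 0.551 in mutant mRNA, against 0.509 and 0.527 in wild-type mRNA, a ratio that no scaling can move and whose groups overlapped.

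Both main parts of the maintenance machinery were lower in mutant mRNA. DNMT1 (ENSG00000130816, chromosome 19, 10133346 to 10194953) stood at 264 and 275 CPM in mutant mRNA, against 325 and 320 CPM in wild-type mRNA. Its fall had a log2 fold change of -0.26 (SE 0.0515, edgeR adjusted p = 5.7e-06). UHRF1 (ENSG00000276043, chromosome 19, 4903080 to 4962154) stood at 32.8 and 32.4 CPM in mutant mRNA, against 49.1 and 49.3 CPM in wild-type mRNA. With a log2 fold change of -0.59 (SE 0.119, edgeR adjusted p = 8.3e-06) it was the largest mRNA change of the 10 genes, and only 2.72% of all genes tested had a fold change as low. UHRF2 (ENSG00000147854, chromosome 9, 6413199 to 6507054), the paralogue of UHRF1 that also binds modified CpG sites, stood at 29.5 and 27.5 CPM in mutant mRNA, against 24.5 and 25.3 CPM in wild-type mRNA. It was not called (log2 fold change 0.19, edgeR adjusted p = 0.3). The count of UHRF2 per count of UHRF1 was 0.897 and 0.850 in mutant mRNA, against 0.5 and 0.514 in wild-type mRNA, with no overlap between the groups. In footprints this ratio was 0.96 and 0.55 in mutant libraries, against 0.719 and 0.414 in wild-type libraries, and the groups overlapped. For ratios between genes the share of all pairs whose groups do not overlap was not computed, and the ratios were not tested.

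Other genes of S phase were read beside UHRF1 and DNMT1, since both are made mainly in cycling cells. Of 20 such genes 6 fell, 2 rose and 12 were not called in mRNA by edgeR, with a median log2 fold change of -0.09; the 40% called compare with 37.7% of all genes. The helicase subunits MCM2, MCM5 and MCM7 and the licensing factor CDT1 fell, with log2 fold changes of -0.46, -0.31, -0.24 and -0.28. In footprints 5 of the 20 fell and 1, the licensing factor CDC6, rose, so 30% were called, against 21.2% of all genes (10.3% higher and 11% lower). The part of the cell cycle in the changes of UHRF1 and DNMT1 was not tested.

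Among the TET dioxygenases only TET3 was called in mRNA. TET3 (ENSG00000187605, chromosome 2, 73983631 to 74135498) stood at 115 and 128 CPM in mutant mRNA, against 149 and 157 CPM in wild-type mRNA, and fell with a log2 fold change of -0.34 (SE 0.0685, edgeR adjusted p = 7e-06). TET1 (ENSG00000138336, chromosome 10, 68560337 to 68694487) stood at 121 and 126 CPM in mutant mRNA, against 118 and 122 CPM in wild-type mRNA. The groups overlapped, and the approximate 95% interval of its log2 fold change ran from -0.10 to 0.18. TET2 stood at 56.0 and 52.5 CPM in mutant mRNA, against 51.4 and 53.4 CPM in wild-type mRNA, with an interval from -0.15 to 0.25. Both TET2 groups overlapped in mRNA, unlike in footprints.

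Of the glycosylases that act on damaged or oxidised CpG sites, MBD4 was called in mRNA and TDG was not. MBD4, which excises thymine and uracil opposite guanine at CpG sites (ENSG00000129071, chromosome 3, 129430947 to 129439948), stood at 69.1 and 77.5 CPM in mutant mRNA, against 60.3 and 57.4 CPM in wild-type mRNA. It rose with a log2 fold change of 0.32 (SE 0.0947, edgeR adjusted p = 0.0038). TDG stood at 51.1 and 53.0 CPM in mutant mRNA, against 47.9 and 43.7 CPM in wild-type mRNA, and was not called (log2 fold change 0.19, edgeR adjusted p = 0.16).

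The mRNA calls of the 10 genes were not equally firm. With the biological variation coefficient set to 10% in a likelihood ratio test, UHRF1 was the only 1 of the 10 genes still called (edgeR adjusted p = 0.0467). The main fit had a coefficient of 2.1% and, beside it, a spread estimated for each gene. The 10% setting has no such gene-wise part, so the 2 coefficients are not like for like. The call of DNMT3B was lost with DESeq2 (adjusted p = 0.0911), without wild-type mRNA replicate 2 (edgeR adjusted p = 0.15) and without mutant mRNA replicate 1 (edgeR adjusted p = 0.0883). That of MBD4 was lost with DESeq2 (adjusted p = 0.0913), without wild-type mRNA replicate 2 (edgeR adjusted p = 0.0957) and without mutant mRNA replicate 2 (edgeR adjusted p = 0.0744). Fold changes in mRNA also moved with local gene density: the median log2 fold change was 0.18 over genes with 1 to 21 neighbours within 500 kb and -0.19 over genes with 46 to 133. DNMT1 has 57 such neighbours, and once the trend was removed its log2 fold change was -0.09 and no longer called (edgeR adjusted p = 0.19). TET3, with 49 neighbours, kept its call at -0.20, and DNMT3A, with 20, stood at -0.41.

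**Figure D2:**
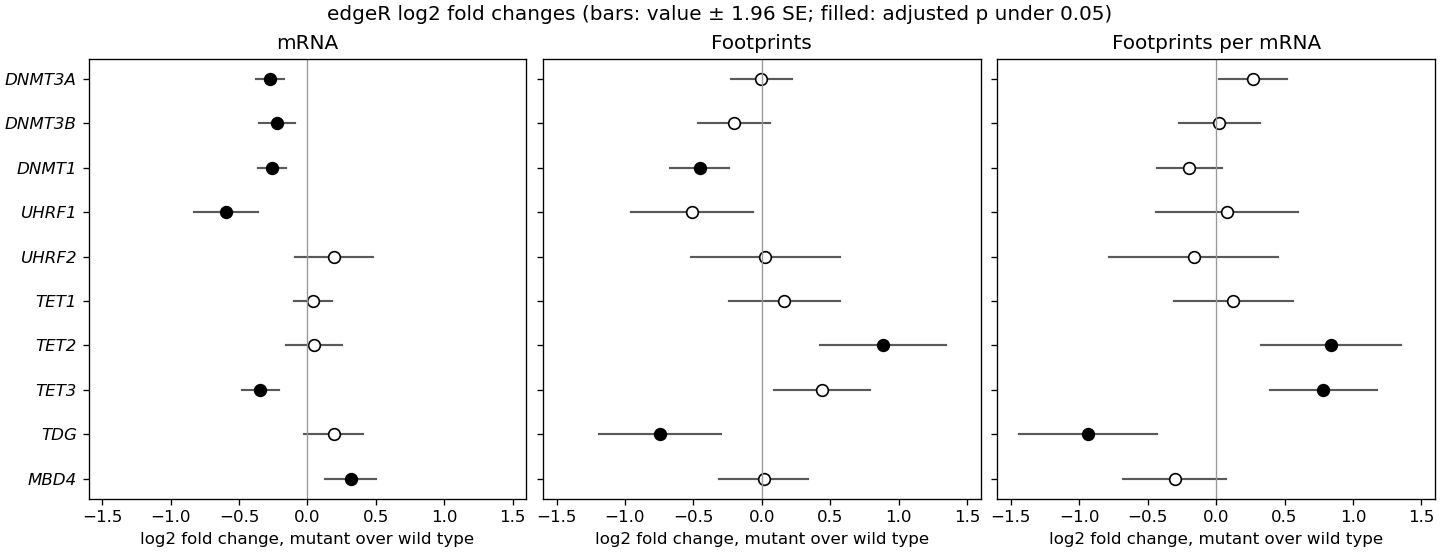
Log2 fold change of mutant over wild type for each gene (x axis) in mRNA, footprints and footprints per mRNA, with bars for the approximate 95% interval; filled points have an edgeR adjusted p under 0.05. UHRF1 is the lowest in mRNA at -0.59, and TET2 at 0.84, TET3 at 0.78 and TDG at -0.94 are the filled points in footprints per mRNA.

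The second comparison asked how ribosome footprints on each gene differed. By edgeR 1 of the 10 genes rose, 2 fell and 7 were not called, against 21.2% of 9181 genes called in all, 10.3% higher and 11% lower. Mutant values lay wholly above wild-type values for TET1, TET2 and TET3 and wholly below for DNMT3B, DNMT1, UHRF1 and TDG. Among all genes 58.8% had groups that did not overlap, 29.5% with the mutant higher and 29.3% with it lower. The counts behind these values were small in the mutant, and for several genes under 50 a library.

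TET2 (ENSG00000168769, chromosome 4, 105145875 to 105279803) gave the largest footprint change of the 10. It had 41.9 and 36.1 CPM (40 and 22 counts) in mutant footprints, against 20.3 and 22.2 CPM (32 and 43 counts) in wild-type footprints. The log2 fold change was 0.89 (SE 0.235, edgeR adjusted p = 0.0029), above 98.2% of all genes tested. A noncoding antisense gene, TET2-AS1, and a gene listed as protein-coding, LOC124900868, overlap TET2. Since the strand setting of the counting is not given, their reads cannot be told apart from those of TET2. By RefSeq positions BOLA3 overlaps TET3 and ARRDC5 overlaps UHRF1, with the same limit. TET3 had 60.7 and 60.7 CPM (58 and 37 counts) in mutant footprints, against 43.8 and 45.5 CPM (69 and 88 counts) in wild-type footprints. The groups did not overlap, but the footprint log2 fold change of 0.44 missed the threshold (SE 0.18, edgeR adjusted p = 0.067). TET3 passed when genes with a mean count under 50 were left out (edgeR adjusted p = 0.0417) and when the gene density trend was removed (edgeR adjusted p = 0.0244). TET1 had 40.8 and 42.7 CPM in mutant footprints, against 36.2 and 37.8 CPM in wild-type footprints, and was not called (log2 fold change 0.17, edgeR adjusted p = 0.63).

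TDG (ENSG00000139372, chromosome 12, 103965872 to 103988874) moved down. It had 32.4 and 18.1 CPM (31 and 11 counts) in mutant footprints, against 43.8 and 46.0 CPM (69 and 89 counts) in wild-type footprints. The fall had a log2 fold change of -0.74 (SE 0.227, edgeR adjusted p = 0.011). The mutant replicates differ more from each other than the wild-type ones do, and without mutant footprint replicate 2 the log2 fold change was -0.47 and not called (edgeR adjusted p = 0.22). Without mutant footprint replicate 1 it was -1.31 (edgeR adjusted p = 0.048). The call was also lost without wild-type footprint replicate 2 (edgeR adjusted p = 0.0625). TDG has a pseudogene, TDGP1, and how reads that match both were counted is not given in the sources used here. By symbol DNMT3A, UHRF2 and TET1 also have a pseudogene (DNMT3AP1, UHRF2P1 and TET1P1), with the same limit. MBD4 had 70.1 and 52.5 CPM in mutant footprints, against 60.9 and 64.1 CPM in wild-type footprints, so its groups overlapped and its higher mRNA had no counterpart that passed the test (log2 fold change 0.01, edgeR adjusted p = 0.97).

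DNMT1 was lower in footprints as in mRNA. It had 132 and 151 CPM (126 and 92 counts) in mutant footprints, against 191 and 191 CPM (301 and 370 counts) in wild-type footprints. The fall had a log2 fold change of -0.46 (SE 0.109, edgeR adjusted p = 0.00085). Without mutant footprint replicate 1 it was -0.34 and not called (edgeR adjusted p = 0.22). UHRF1 had 26.2 and 32.8 CPM in mutant footprints, against 36.2 and 45.0 CPM in wild-type footprints; its log2 fold change of -0.51 resembled that in mRNA but rested on 25 and 20 mutant counts and was not called (edgeR adjusted p = 0.096). UHRF2 had 25.1 and 18.1 CPM in mutant footprints, against 26.0 and 18.6 CPM in wild-type footprints, with overlapping groups.

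The footprints of DNMT3A itself, unlike its mRNA, were not called. They stood at 144 and 149 CPM (138 and 91 counts) in mutant libraries, against 138 and 154 CPM (217 and 298 counts) in wild-type libraries. The mutant pair lay inside the wild-type pair, and the 95% interval of the log2 fold change ran from -0.22 to 0.22. DNMT3B had 92.1 and 98.5 CPM in mutant footprints, against 103 and 113 CPM in wild-type footprints, and was not called (log2 fold change -0.20, edgeR adjusted p = 0.3). DNMT3B counts per DNMT3A count were 0.638 and 0.659 in mutant footprints, against 0.751 and 0.735 in wild-type footprints, with no overlap between the groups. This ratio was not tested, and how often other gene pairs separate in this way was not computed.

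With an assumed coefficient of variation of 10% edgeR called none of the 10 in footprints, with 3 at an unadjusted p under 0.05. DESeq2 called DNMT1 and gave no adjusted p to 6 genes with low counts, among them TET2 (unadjusted p = 0.015) and TDG (unadjusted p = 0.03). The call of TET2 was lost without mutant footprint replicate 1 (edgeR adjusted p = 0.21), where its log2 fold change was 0.75.

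**Figure D3:**
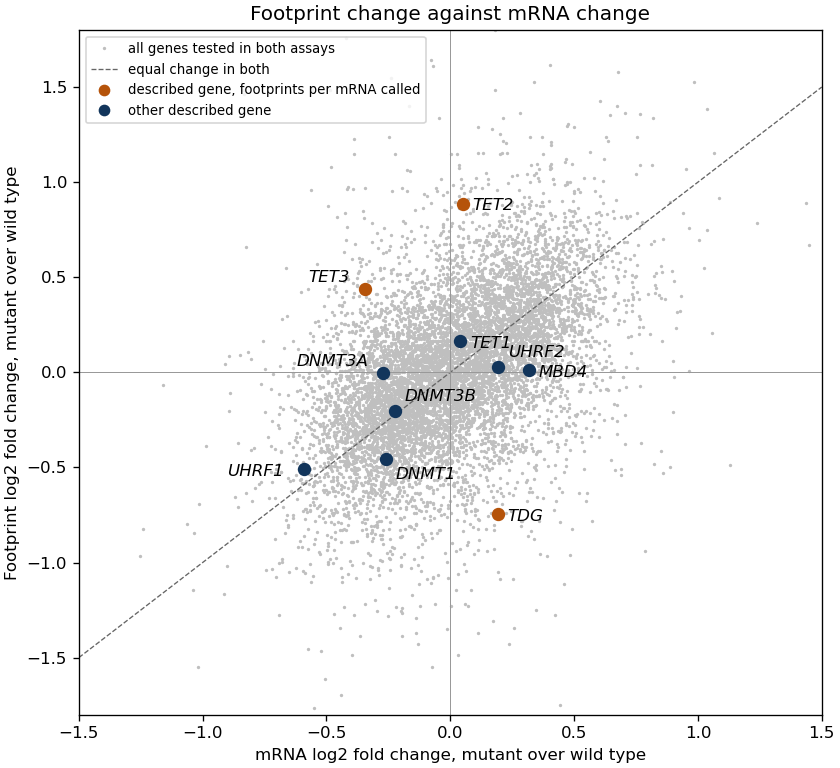
Footprint log2 fold change (y axis) against mRNA log2 fold change (x axis), mutant over wild type, for the 9166 genes tested in both assays (grey; 18 lie outside the axes) with the 10 genes named. TET2 and TET3 lie above the dashed line of equal change and TDG below it, at footprint log2 fold changes of 0.89, 0.44 and -0.74.

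The last comparison asked whether footprints changed beyond the mRNA, through the genotype by assay term of 1 edgeR model over 8 libraries. By edgeR 2 of the 10 genes rose, 1 fell and 7 were not called, where 4.11% of 9166 genes were called, 1.78% higher and 2.33% lower. The genes called were TET2, TET3 and TDG, and of the other 7 DNMT3A alone had an unadjusted p under 0.05. DESeq2 called TET3 and gave no adjusted p to TET2 (unadjusted p = 0.007) and TDG (unadjusted p = 0.0025).

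TET3 had the lowest p. Its mean footprint CPM per mean mRNA CPM was 0.50 in the mutant and 0.292 in the wild type, and the log2 fold change was 0.78 (SE 0.199, edgeR adjusted p = 0.0093). Here mRNA fell while footprints were higher in both mutant libraries, so the interaction exceeds either change alone. The ratio of TET2 was 0.718 in the mutant and 0.406 in the wild type, with a log2 fold change of 0.84 (SE 0.26, edgeR adjusted p = 0.047), nearly all of it from footprints. The ratio of TDG was 0.485 in the mutant and 0.980 in the wild type, with a log2 fold change of -0.94 (SE 0.256, edgeR adjusted p = 0.019). Among all genes, the log2 fold change of TET2 lay at the 98.3rd percentile, that of TET3 at the 97.8th and that of TDG at the 1.3rd.

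TET1, which shares the catalytic domain of TET2 and TET3, had ratios of 0.338 in the mutant and 0.308 in the wild type, and a log2 fold change of 0.13 whose 95% interval ran from -0.31 to 0.56. A change of the size seen in TET2 or TET3 lies outside this interval, but the differences between the 3 TET genes were not tested. Within a library TET1 counts per TET3 count were 1.05 and 0.986 in mutant mRNA, against 0.788 and 0.777 in wild-type mRNA. In footprints they were 0.672 and 0.703 in mutant libraries, against 0.826 and 0.830 in wild-type libraries, so the order of the groups turned between the assays. TET2 counts per TET3 count were 0.690 and 0.595 in mutant footprints, against 0.464 and 0.489 in wild-type footprints, with no overlap. In mRNA they were 0.488 and 0.410 in mutant libraries, against 0.345 and 0.340 in wild-type libraries, also with no overlap. The order of the groups for this pair was thus the same in both assays. These ratios were not tested, and how often other gene pairs separate in this way was not computed.

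DNMT3A had a ratio of 0.606 in the mutant and 0.498 in the wild type. Its log2 fold change of 0.27 (SE 0.125) was not called after adjustment (unadjusted p = 0.034, edgeR adjusted p = 0.24). DNMT1 had ratios of 0.525 in the mutant and 0.593 in the wild type (log2 fold change -0.20, edgeR adjusted p = 0.42), and MBD4 had 0.837 in the mutant and 1.06 in the wild type (log2 fold change -0.30, edgeR adjusted p = 0.43). DNMT3B, UHRF1 and UHRF2 had log2 fold changes between -0.17 and 0.08, each within its own standard error.

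**Figure D4:**
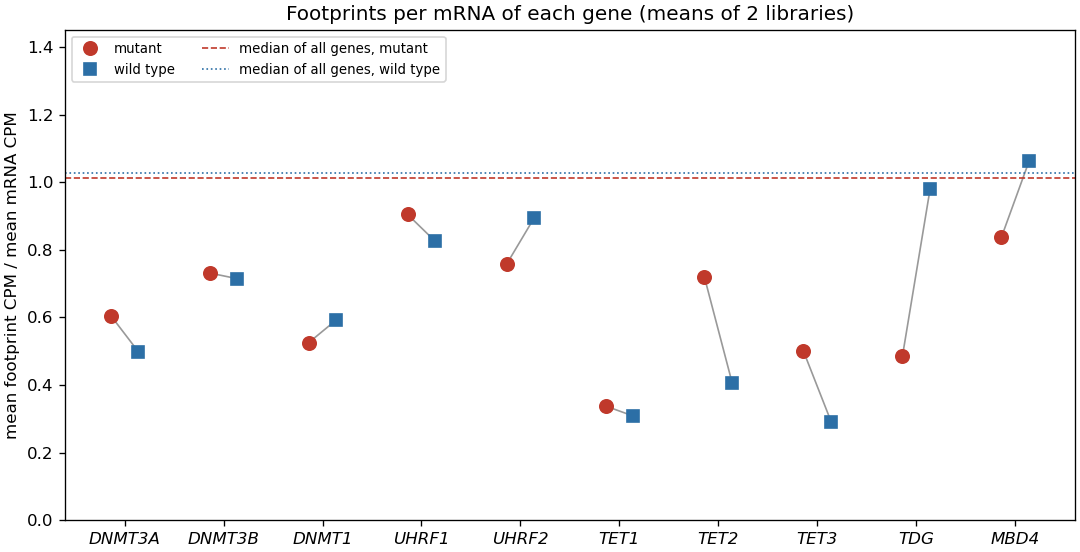
Mean footprint CPM divided by mean mRNA CPM for each gene (y axis from 0), with mutant circles left of wild-type squares and dashed and dotted lines at the median of 9166 genes, 1.01 in the mutant and 1.03 in the wild type. TET2 and TET3 stand higher in the mutant and TDG stands lower, at 0.485 in the mutant and 0.980 in the wild type.

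Most of the 10 genes carried fewer footprints per mRNA than the typical gene in both genotypes. In the mutant all 10 ratios, and in the wild type all but that of MBD4, lay under the median of all genes, which was 1.01 in the mutant and 1.03 in the wild type. The 3 TET genes were lowest in the wild type, at the 2.74th percentile for TET1, the 6.47th for TET2 and the 2.35th for TET3. In the mutant TET1 stayed low at the 3.04th percentile, while TET2 stood at the 27th and TET3 at the 10.9th. TDG stood at the 10th percentile in the mutant and at the 46.9th in the wild type. A ratio of this kind also depends on how much of a transcript is coding sequence, which was not measured here, and for the same lack of lengths the levels of different genes are not ranked.

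Calls of footprints per mRNA were the least stable. With an assumed coefficient of variation of 10% edgeR called none of the 10, with 3 at an unadjusted p under 0.05. TET3 lost its call without either mutant footprint replicate (edgeR adjusted p = 0.18 without replicate 1 and 0.057 without replicate 2), with log2 fold changes of 0.78 in both cases. TDG had -0.67 without mutant footprint replicate 2 (edgeR adjusted p = 0.26) and -1.51 without mutant footprint replicate 1, and lost its call without wild-type mRNA replicate 2 (edgeR adjusted p = 0.0538) and without wild-type footprint replicate 2 (edgeR adjusted p = 0.0664). TET2, whose adjusted p was close to the threshold, lost its call without 6 of the 8 libraries left out in turn, with edgeR adjusted p values of up to 0.44, and without a filter on low counts (0.81, edgeR adjusted p = 0.076). The direction of all 3 was the same under each of these settings.

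**Figure D5:**
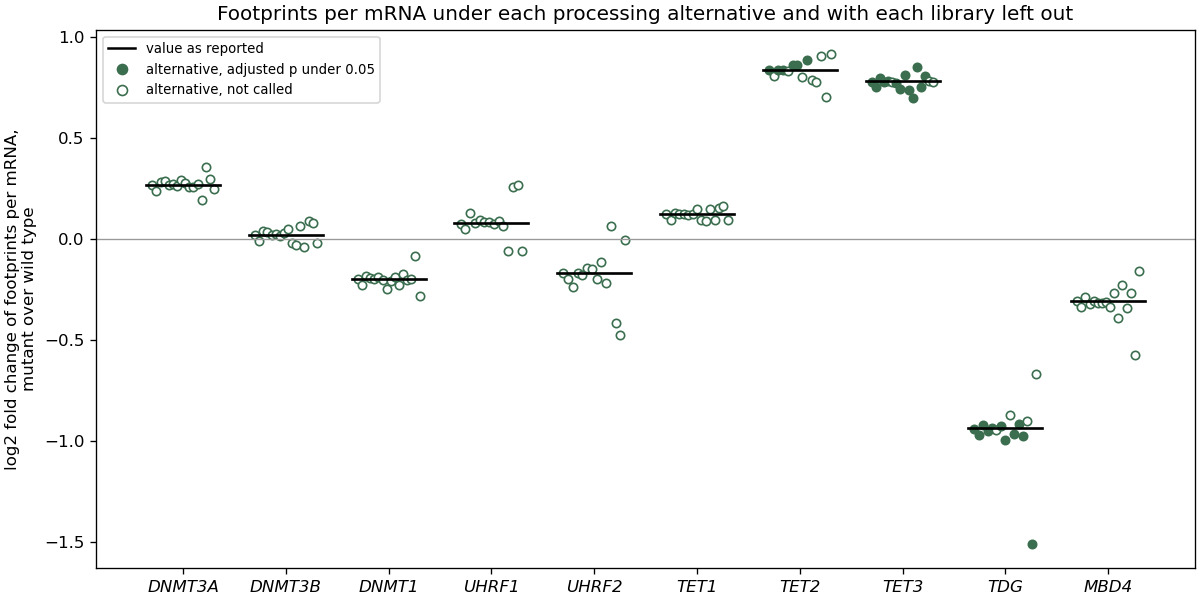
Log2 fold change of footprints per mRNA, mutant over wild type (y axis), for each gene under each processing alternative and with each library left out; the black line is the value reported and filled points have an adjusted p under 0.05. All points of TET2 and TET3 lie above 0 and all points of TDG below it, with TDG between -1.51 and -0.67. An alternative that gave a gene no adjusted p has no point. Of 16 alternatives, 14 are shown for TET2, UHRF1 and UHRF2 and 15 for TET1 and TDG.

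The wider pathway was read from 59 other genes in 6 lists. In mRNA 18 fell, 8 rose and 27 were not called of 53 tested, so 49.1% were called, against 37.7% of all genes. With the gene density trend removed edgeR called 12 lower and 11 higher in mRNA. In footprints 5 fell, 8 rose and 38 were not called of 51 tested, so 25.5% were called, against 21.2% of all genes. Among 9 genes of the families that hold the readers of methylated CpG, 4 fell and 1 rose in mRNA (55.6% called). Not every member of these families, MBD3 and MBD6 among them, need bind methylated CpG itself. Those that fell included MBD3 of the NuRD complex (log2 fold change -0.37, edgeR adjusted p = 6.4e-05), MBD1 (-0.25) and the zinc finger reader ZBTB4 (-0.49), and the one that rose was ZBTB33, also called Kaiso (0.38). In footprints MBD6 alone of this list was called, higher (0.67, edgeR adjusted p = 0.023). Of the 6 readers of unmethylated CpG that carry a CXXC finger 4 fell in mRNA: FBXL19 (-0.46), CXXC1 (-0.37), KDM2B (-0.24) and the histone methyltransferase KMT2B (-0.21), or 66.7% called.

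Among 14 tested cofactors and chromatin partners of the methyltransferases 2 rose and 4 fell in mRNA, or 42.9% called, against 37.7% of all genes. QSER1, which guards unmethylated sites against DNMT3 enzymes, rose (0.38, edgeR adjusted p = 4.2e-12), as did SETD2 (0.36), the histone H3 lysine methyltransferase whose mark is bound by DNMT3 enzymes. The corepressor TRIM28 and the replication ligase LIG1 fell, with -0.24 and -0.39. In footprints QSER1 also rose (0.68, edgeR adjusted p = 1.3e-06), with footprints per mRNA not called (0.30, edgeR adjusted p = 0.2), and the histone methyltransferase NSD2 rose (0.48), while PCNA, the replication clamp that binds DNMT1, fell (-0.52, edgeR adjusted p = 1.4e-08). PCNA also fell in footprints per mRNA (-0.55, edgeR adjusted p = 1.9e-05).

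On the side of demethylation, OGT, the glycosyltransferase that binds TET proteins, rose in mRNA (0.31) and in footprints (0.35). IDH1, which makes the 2-oxoglutarate that TET enzymes use, rose in mRNA (0.39, edgeR adjusted p = 3.1e-05). The TET partner CXXC5 and the stress gene GADD45A fell in mRNA, with -0.25 and -0.26. The base excision list holds other glycosylases beside genes that act after them. Of its 11 tested genes 3 fell in mRNA, among them the scaffold XRCC1 (-0.38) and the uracil glycosylase UNG (-0.27). The repair polymerase POLB rose (0.43), so 36.4% were called, near the 37.7% of all genes. PARP1, the sensor of DNA breaks, fell in footprints (-0.44, edgeR adjusted p = 0.00027) and in footprints per mRNA (-0.40, edgeR adjusted p = 0.02). With PCNA that makes 2 of 51 genes called in footprints per mRNA, or 3.92%, against 4.11% of all genes. For the supply of S-adenosylmethionine, the methyl donor, its synthase genes MAT2A and MAT2B rose in mRNA (0.28 and 0.35) and AHCY, which clears the product of methylation, fell (-0.19). Of these 59 genes none was called in mRNA by edgeR with an assumed coefficient of variation of 10%, with 13 at an unadjusted p under 0.05, and DESeq2 called 13. Without wild-type mRNA replicate 2 edgeR called 15 of them in mRNA. In footprints it called 3 without wild-type replicate 2, 2 without mutant replicate 1 and 6 without mutant replicate 2, in place of 13. Without a filter on low counts edgeR called 8 in footprints, and DESeq2 called 3.

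The genes whose pattern over the 8 libraries was most like that of DNMT3A were KHSRP, H2BC12, MYO9B, PLXNA1 and OAZ1, out of 3067 genes that averaged 100 counts or more in both assays. Likeness was the root-mean-square difference of log2 CPM (with 0.5 added), each gene centred on its own mean, and it lay between 0.0289 for KHSRP and 0.0638 for OAZ1. Their log2 fold changes lay between -0.33 and -0.17 in mRNA and between -0.06 and 0.06 in footprints, and KHSRP had -0.27 in mRNA and 0.03 in footprints. H2BC12 is a histone gene with near-identical copies, so its counts are uncertain. Of the other 9 genes only DNMT1 and DNMT3B had enough counts to be ranked, at places 155 and 250.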

How the data were processed

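mRNA and ribosome footprints were measured in 8 libraries of cells transduced with mutant or wild-type DNMT3A, grouped by the sample titles. The authors deposited raw read counts, 1 file per library, with a row for each Ensembl gene ID. Tools named in the submitters' processing notes are STAR, Bowtie2, cutadapt, Trimmomatic and featureCounts, and the builds named are GRCh38 and hg38. Roles, versions, annotation release, strand setting and handling of multiply matching reads: not given in the sources used here. Of 20453 gene IDs, 20407 matched a symbol.

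The test was edgeR's quasi-likelihood fit (version 4.0.16, R 4.3.3; glmQLFit with legacy set to FALSE, glmQLFTest) after filterByExpr, with TMM factors computed per assay. mRNA and footprints were each tested over their own 4 libraries, and footprints per mRNA as the interaction over all 8. p-values were adjusted by Benjamini-Hochberg over all genes tested, and a gene was called at an adjusted p under 0.05. Standard errors are the log2 fold change divided by the root of the F statistic. The fits were tested on simulated counts with a fixed spread about as small as that of the main fit. That does not check them for replicates with a wider spread. Alternatives were RLE factors, no filter, a mean count of at least 50, a replicate block, the legacy quasi-likelihood fit, an assumed coefficient of variation of 10%, DESeq2 1.42.0, removal of the lowess trend with the number of RefSeq genes within 500 kb, and each library left out.

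Nothing in the labels says whether replicates were separate cultures; p-values therefore cover the spread between these libraries alone, and that may be technical. Where the mean count was 300 or more, the replicates of each group differed by more than sampling noise (chi-square per degree of freedom between 1.15 and 1.76). From a mean count of 20 the mutant footprint replicates did not (0.939). Since no molecular identifiers are named, reads need not be independent molecules. Genes named were the 10 described, up to 4 of each other list with the smallest p in a comparison, and the 5 most like DNMT3A; some genes that the rule names are not reported here. Genes and lists were chosen with earlier results of these data known.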

Additional observations from a re-analysis of the deposited data

Results flagged for a closer look

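For 3 genes the change in footprints differed from the change in mRNA by the test of the difference itself (edgeR interaction over 8 libraries, Benjamini-Hochberg adjusted). The log2 fold change of footprints per mRNA, mutant over wild type, was 0.84 for TET2 (adjusted p = 0.047). It was 0.78 for TET3 (edgeR adjusted p = 0.0093), whose mRNA and footprints had opposite signs. It was -0.94 for TDG (edgeR adjusted p = 0.019), which rested on 31 and 11 footprint counts in the mutant, against 69 and 89 in the wild type. In a group of 2 libraries no test for an outlying library was run.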

How the results depend on the processing

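Of 382 single-gene values under an alternative, 323 kept their direction and side of the threshold, 34 kept the direction and lost the call, 2 kept it and gained one, and 23 turned direction. Assuming a coefficient of variation of 10% left 313 mRNA calls, 288 footprint calls and 13 calls of footprints per mRNA, of which 1, 0 and 0 were among the 10 genes (2, 3 and 3 at an unadjusted p under 0.05). DESeq2 left 1726, 550 and 175 calls, of which 4, 1 and 1 were among the 10 genes (6, 3 and 3 at an unadjusted p under 0.05). It gave no adjusted p to 6 of the 10 in footprints and to 4 in footprints per mRNA. Leaving out a library gave 2281 to 3839 calls in mRNA, the fewest without wild-type replicate 2 and 2653 without mutant replicate 1. It gave 273 to 1807 in footprints, the fewest without mutant replicate 1, with 952 without mutant replicate 2 and 1155 without wild-type replicate 2. It gave 136 to 446 in footprints per mRNA, the fewest without mutant footprint replicate 1 and 231 without replicate 2. Among the 10 genes it left 1 to 3 calls in footprints, and 0 to 3 in footprints per mRNA.

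The values that turned belonged to genes and comparisons without a call. The footprint log2 fold change of DNMT3A was 0.0196 when mean counts under 50 were left out, 0.0170 with the replicate block, 0.00499 with a 10% coefficient of variation, 0.0028 with DESeq2 and between -0.0790 and 0.0841 with a library left out. That of UHRF2 was -0.0480 with the replicate block, -0.0694 without the density trend and -0.28 to 0.26 with a library left out. That of MBD4 was -0.0068 without a filter, -0.0056 with DESeq2 and -0.26 to 0.16 with a library left out. In mRNA TET2 had -0.0923 without the density trend. In footprints per mRNA DNMT3B had -0.0073 without a filter and -0.0394 to 0.0922 with a library left out, UHRF1 -0.0587 to 0.27 and UHRF2 -0.47 to 0.0668. The cause of these moves was not tested.

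Same-numbered libraries barely deviated together (r between 0.02 and 0.04 over 9166 genes). From a mean count of 20, chi-square per degree of freedom between replicates lay between 0.939 and 1.35. From a mean count of 1000 it lay between 1.36 in wild-type mRNA and 2.84 in mutant mRNA, so replicates differed by more than sampling noise there. In genes with fewer counts a shared deviation could be hidden in sampling noise, so whether the replicate numbers pair the libraries was not settled. The replicate block gave 4168, 2074 and 495 calls, in place of 4060, 1950 and 377, and changed no call among the 10 genes. Low footprint counts in the mutant limit the precision of UHRF1, UHRF2, TET1, TET2, TET3 and TDG.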
